A study of Mus musculus with 36 samples.

Results

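The genes described are 10 markers of the endothelium that forms the blood-brain barrier: Mfsd2, Cldn5, Pecam1, Flt1, Tek, Slco1a4, Ly6c1, Abcb1a, Slc2a1 and Cdh5. They were taken as every array probe whose gene symbol was 1 of these 10 names, which gave 14 of the 45281 probes. The question was whether Mfsd2, 1 of the genes that the study had picked out from these same arrays, differed from vehicle alone or together with the other genes of brain endothelium, under each drug and in each region. Because Mfsd2 was picked on these arrays, its difference from vehicle here is not independent evidence.

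RNA was measured on 36 Illumina MouseWG-6 arrays in 3 brain regions of male C57BL/6J mice about 11 weeks old: the medial prefrontal cortex (PFC), the hippocampus (HIP) and the nucleus accumbens (NAc). Mice received 1 intraperitoneal injection a day for 10 days, and tissue was taken 1 h after the last. The 4 groups were vehicle, Cpd-60 at 45 mg/kg (an inhibitor selective for HDAC1 and HDAC2), SAHA at 25 mg/kg (a less selective histone deacetylase inhibitor) and CI-994 at 10 mg/kg (another histone deacetylase inhibitor). Each array held RNA pooled from 2 mice, each treatment had 3 pools (called replicates 1 to 3), and all 3 regions were taken from the same pools. The doses of the drugs differ, and the tissue is whole dissected brain, of which endothelium is a small part, so fewer endothelial cells and less RNA per cell cannot be told apart. The second Cpd-60 pool is given other mice in its title and source than in its description, which repeats the mice of the first pool in each region. Title and source were followed, and the Mfsd2 and Slc2a1 values without this pool are given beside their results under Cpd-60.

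Endothelial cells of brain capillaries are sealed to each other by tight junctions and move little across themselves in vesicles, so that most nutrients enter the brain through dedicated transporters. Mfsd2 (current symbol Mfsd2a) is a transporter of lysophosphatidylcholines that carry docosahexaenoic acid into the brain, and it is known for holding down vesicle transport across brain endothelium. The other members serve the junctions (Cldn5, Cdh5, Pecam1), receive vascular growth signals (Flt1, Tek), carry glucose (Slc2a1) or organic anions (Slco1a4), export drugs (Abcb1a) or mark the cell surface (Ly6c1).

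The sequence before the transcription start was read for the members from the RefSeq promoter table (GRCm38.p6), which held 8 of the 10 genes in 9 windows of 250 bases. The windows of Mfsd2 (chr4:122961189-122961438, minus strand), Slc2a1 (chr4:119108495-119108744, plus strand) and Cldn5 (chr16:18776597-18776846, plus strand) are shown because these genes are the 3 that the comparisons turn on most. Each lies just upstream of the first exon and is written 5′ to 3′ on the strand of the gene, with matches to the searched motifs in capitals.
Mfsd2: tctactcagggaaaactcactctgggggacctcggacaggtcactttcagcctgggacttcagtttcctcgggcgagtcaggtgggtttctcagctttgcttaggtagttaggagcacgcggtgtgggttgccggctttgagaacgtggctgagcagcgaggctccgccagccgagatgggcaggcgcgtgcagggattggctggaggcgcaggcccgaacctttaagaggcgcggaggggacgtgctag
Slc2a1: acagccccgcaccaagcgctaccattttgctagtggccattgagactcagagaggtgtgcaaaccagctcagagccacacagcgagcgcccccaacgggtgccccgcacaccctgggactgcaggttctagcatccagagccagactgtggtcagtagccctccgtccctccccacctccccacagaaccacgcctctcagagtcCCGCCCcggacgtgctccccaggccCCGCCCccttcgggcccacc
Cldn5: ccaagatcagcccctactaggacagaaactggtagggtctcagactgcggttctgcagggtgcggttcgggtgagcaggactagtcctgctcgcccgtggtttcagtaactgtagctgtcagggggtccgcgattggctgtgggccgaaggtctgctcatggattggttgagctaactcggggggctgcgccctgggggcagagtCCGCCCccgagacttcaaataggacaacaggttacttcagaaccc

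On both strands of each window 4 motifs were searched: the GC box GGGCGG, the E-box CACGTG, the glucocorticoid receptor motif AGAACA and the TATA box TATAAA. No matches overlapped in the members' windows. The Mfsd2 window held none of these letters, that of Slc2a1 held 2 GC boxes and that of Cldn5 held 1. Over all 32851 windows of the table, 32.7% held the GC box, 6.02% the E-box, 16.1% the glucocorticoid receptor motif and 12.4% the TATA box. The Mfsd2 window was 61.6% G or C with 17 CG dinucleotides, against medians of 52.4% and 6 over all windows. Among the other members, the windows of Slc2a1, Cldn5 and Flt1 were also rich in CG (13, 12 and 23), whereas those of Tek, Slco1a4, Ly6c1 and Abcb1a held at most 2. A match, or its absence, describes the letters of the window only.

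Raw array medians ran from 82.2 to 108.3 intensity units, and 31.9% to 43.3% of probes were detected at a p of at most 0.01. Mfsd2, Cldn5, Pecam1, Flt1, Ly6c1 and Slc2a1 were detected on all 36 arrays, Tek on 35, Slco1a4 on 31 and Cdh5 on 20. Abcb1a was detected on none. It stayed between 6.40 and 6.74 log2 intensity units on all arrays and was not tested, so no difference is given for this drug exporter. On all 3 vehicle arrays of a region, 7 (PFC), 8 (NAc) and 8 (HIP) of the 10 members were detected, and 9 genes were tested in each region among 22156 (PFC), 23242 (NAc) and 23275 (HIP) probes tested. All levels below are log2 of quantile-normalized intensity, and all changes are differences of these levels.

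By point estimate, Mfsd2 was higher under Cpd-60 than under vehicle in all 3 regions, by 0.48 (PFC), 0.54 (NAc) and 0.55 (HIP). In the PFC the vehicle pools read 8.38, 8.45 and 8.47, and the Cpd-60 pools 8.98, 9.12 and 8.63. Every Cpd-60 pool lay above every vehicle pool, the third Cpd-60 pool by least. In the HIP vehicle read 8.24, 8.19 and 8.23, and Cpd-60 read 8.68, 9.11 and 8.53. The groups did not overlap there either, and the spread was wider under Cpd-60 (SD 0.30) than under vehicle (SD 0.03). In the NAc vehicle read 8.27, 8.52 and 8.02, and Cpd-60 read 8.98, 9.33 and 8.12. Here the first and second Cpd-60 pools lay above all vehicle pools, while the third lay within the vehicle range. These 3 Cpd-60 arrays differed in raw brightness, with 95th percentiles of raw intensity of 349.9, 548.1 and 1079.7. The first was the lowest and the third the highest of all 36 arrays. The part of that in the Mfsd2 values was not tested.

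**Figure D1:**
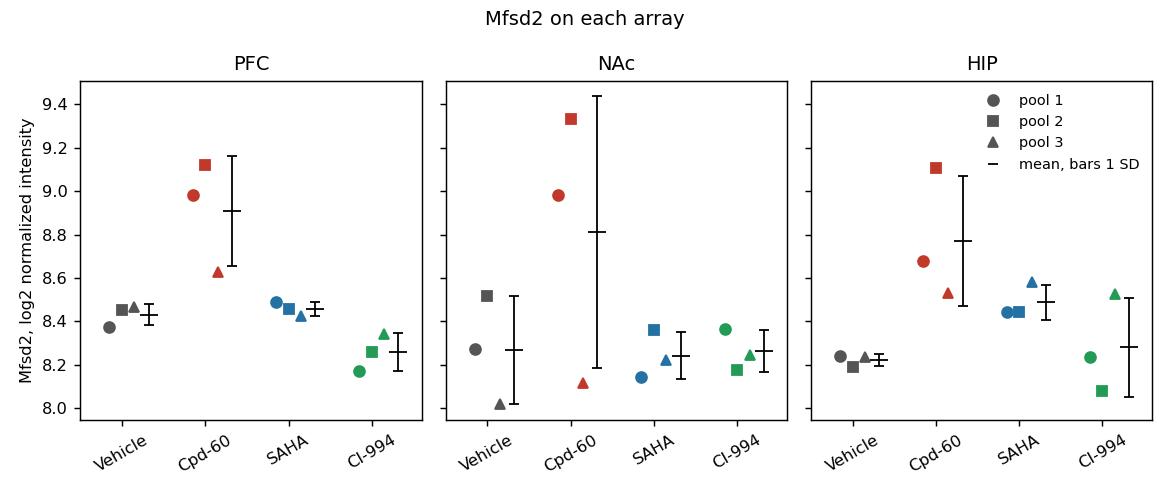
Log2 normalized intensity of Mfsd2 (vertical axis) on each array, by region (panels) and treatment (horizontal axis). Each symbol is 1 pool of 2 mice, with the shape giving the replicate number, and the black mark and bars give the mean and 1 SD of 3 pools. The Cpd-60 pools lie above the vehicle pools in the PFC and HIP, and in the NAc the third Cpd-60 pool (8.12) lies within the vehicle range.

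The change of Mfsd2 under Cpd-60 was 1.39-fold in the PFC (log2 SE 0.10, 95% confidence interval 0.26 to 0.70, adjusted p = 0.66, limma) and 1.46-fold in the HIP (SE 0.14, interval 0.25 to 0.85, adjusted p = 0.81). In the NAc the interval of -0.01 to 1.09 reached 0 (SE 0.25, adjusted p = 1.00). No probe of any kind passed an adjusted p of 0.05 in any comparison of a drug with vehicle (0% of probes tested in each of the 9), so no member did. At an unadjusted p alone, from 463 to 2182 probes passed in a comparison, or 1.99% to 9.37% of those tested, and so did 6 of the 81 values of the members. With an unadjusted limma p under 0.05 and at least a 1.2-fold change, called the unadjusted threshold from here on, Mfsd2 passed in the PFC and HIP, where 1.11% and 1.53% of all probes tested did. In the NAc, where it missed, 1.78% of probes passed. The study itself used Tukey's HSD after a one-way analysis of variance, with the same fold change. By that test, too, Mfsd2 passed 0.05 in the PFC and HIP and missed it in the NAc. An exact permutation test of 3 pools against 3 cannot go below p = 0.1, so the model across all probes was used.

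The third Cpd-60 pool carried the smallest difference in all 3 regions. Without it, the change was 0.62 in the PFC, where it passed the adjusted threshold (adjusted p = 0.0118), and 0.89 in the NAc, where it passed the unadjusted threshold. The former was the only adjusted call among 972 values of the members from refits with 1 pool left out. None was found among 699 values of the members under the other settings. Those 699 include values by Tukey's HSD, which have no adjusted p. They also count a fit to pool means, given below, once for each region. Without the second Cpd-60 pool, the one with the conflicting description, Mfsd2 was higher by 0.37 (PFC), 0.28 (NAc) and 0.38 (HIP). Arrays of a region were run on 2 BeadChips. Replicates 1 and 2 of vehicle and Cpd-60 were on the first, and replicate 3 of each on the second. SAHA and CI-994 had replicate 1 on the first and replicates 2 and 3 on the second. Their differences from vehicle and from Cpd-60 are thus partly mixed with the chip. On the first chip the Cpd-60 difference was 0.64 (PFC), 0.76 (NAc) and 0.68 (HIP), and on the second it was 0.16, 0.10 and 0.30. The difference was positive on both chips of every region, and the second chip compares 1 pool with 1.

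Mfsd2 under SAHA was close to vehicle in the PFC (0.03, interval -0.20 to 0.25) and NAc (-0.03, interval -0.58 to 0.52). In the HIP the SAHA pools read 8.44, 8.44 and 8.58, all above the highest vehicle pool, for a difference of 0.27 (interval -0.03 to 0.56, adjusted p = 0.55). CI-994 pools read 8.17, 8.26 and 8.34 in the PFC, all below the lowest vehicle pool, for a difference of -0.17 (interval -0.39 to 0.05, adjusted p = 1.00). In the NAc and HIP the CI-994 differences were -0.01 and 0.06, with overlapping groups. None of these 6 values passed either threshold. Within BeadChips (first, then second), the SAHA difference was 0.07 and -0.03 (PFC), -0.25 and 0.27 (NAc), and 0.23 and 0.28 (HIP). The CI-994 difference was -0.24 and -0.17 (PFC), -0.03 and 0.19 (NAc), and 0.02 and 0.07 (HIP).

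Drugs were set against each other on Mfsd2, 3 pairs in each of 3 regions, though their doses differed. Cpd-60 was higher than CI-994 by 0.65 in the PFC (interval 0.43 to 0.87, adjusted p = 0.18), by 0.55 in the NAc (interval 0.00 to 1.10, adjusted p = 0.95), and by 0.49 in the HIP (interval 0.19 to 0.79, adjusted p = 0.36). Against SAHA it was higher by 0.45 in the PFC (interval 0.23 to 0.67, adjusted p = 0.62), by 0.57 in the NAc (interval 0.02 to 1.12, adjusted p = 0.95), and by 0.28 in the HIP (interval -0.01 to 0.58, adjusted p = 0.35). SAHA and CI-994 differed by 0.20, -0.02 and 0.21 in the PFC, NAc and HIP, each with an interval that held 0. None of the 9 passed the adjusted threshold, over all probes, and the NAc difference from SAHA lost the unadjusted threshold in 9 of 12 refits with 1 pool left out. The 9 differences of a drug's effect between regions did not pass either: for Cpd-60 they ran from -0.06 to 0.07. Their intervals were wide, such as -0.47 to 0.62 for HIP minus PFC. Without the second Cpd-60 pool, Cpd-60 was higher than CI-994 by 0.55 (PFC), 0.29 (NAc) and 0.32 (HIP), and than SAHA by 0.35, 0.31 and 0.12. Over all 19447 probes tested for these differences, none passed an adjusted p of 0.05, and 297 to 1285 passed an unadjusted p of 0.05.

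As all regions came from the same pools, the mean over the 3 regions of each pool was also compared, a choice made after seeing the data. On that scale the vehicle pools read 8.30, 8.38 and 8.24 for Mfsd2, and the Cpd-60 pools 8.88, 9.19 and 8.43. The groups did not overlap, and the difference was 0.52 (interval 0.22 to 0.83, adjusted p = 0.28). SAHA differed from vehicle by 0.09 and CI-994 by -0.04. By the unadjusted threshold, 0.998% of 19447 probes passed for Cpd-60, 0.0823% for SAHA and 0.247% for CI-994.

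By their median, the other 8 tested members did not follow Mfsd2 as a group under Cpd-60. Their median change was 0.04 (PFC), 0.01 (NAc) and -0.06 (HIP), against medians of -0.0027, -0.0040 and -0.0018 over all probes tested. Cdh5, Slco1a4, Pecam1 and Tek were dim, with mean levels of 6.76 to 7.04 against 6.52 for the undetected Abcb1a, which limits what the median can show. With a background correction (neqc) the median was 0.10 in the PFC and -0.094 in the HIP. Of the 8, 5 were above vehicle in the PFC, 4 in the NAc and only 3 in the HIP, and none passed either threshold in the reported fit. Mfsd2 had the highest change of the tested genes in each region in all 22 settings, the reported one and the leave-one-out refits included. The tested genes were 9, or 8 in the NAc at a detection limit of 0.01. Many settings share the reported Cpd-60 and vehicle means, such as refits without a SAHA or CI-994 pool. First place could not change in these, and Mfsd2 was picked on these arrays, so the count is not separate support. The change of Mfsd2 over the settings ran from 0.37 to 0.62 (PFC), 0.28 to 0.89 (NAc) and 0.38 to 0.69 (HIP). Counting members whose groups did not overlap gave 2 of 9 in the PFC (Mfsd2 higher, Cldn5 lower), none in the NAc and 3 in the HIP (Mfsd2 higher, Flt1 and Tek lower). Over all probes tested, 9.68%, 9.38% and 12.2% had groups that did not overlap in these comparisons, so the members' counts of 1 or 2 genes beside Mfsd2 were near the background.

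**Figure D2:**
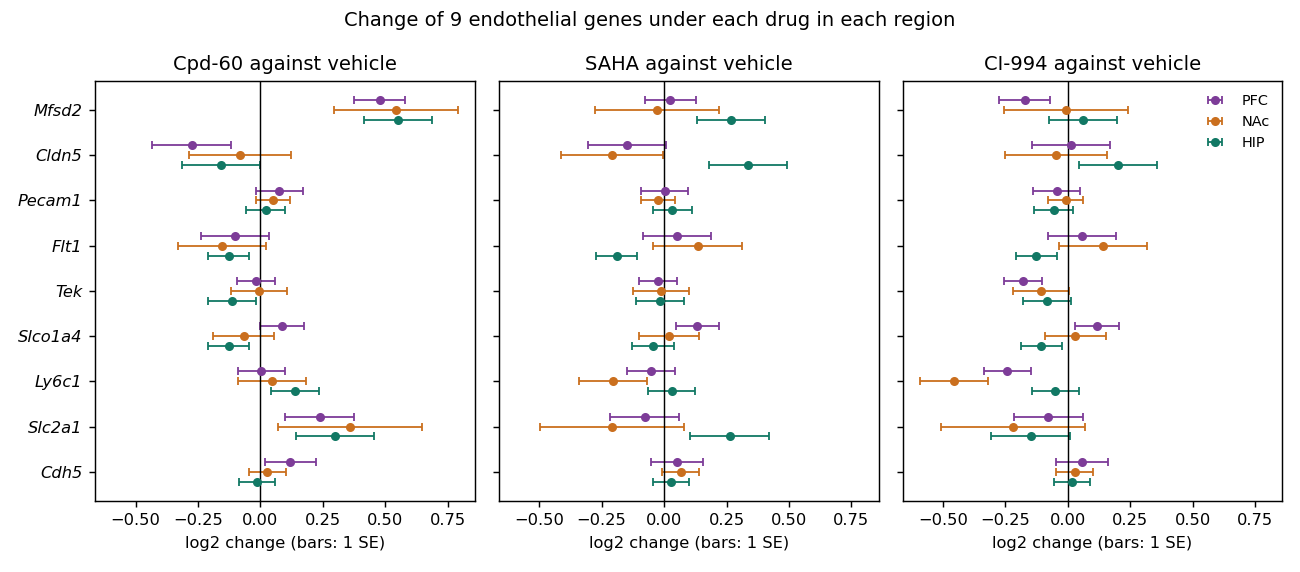
Log2 change against vehicle (horizontal axis, bars 1 SE) of the 9 tested endothelial genes (vertical axis) under each drug (panels), with color giving the region and 3 pools per group. Under Cpd-60 the points of Mfsd2 lie at 0.48, 0.54 and 0.55 and those of Slc2a1 at 0.24, 0.36 and 0.30, while the median of the 8 genes other than Mfsd2 is between -0.06 and 0.04.

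Slc2a1, the glucose transporter of barrier endothelium that glia also express, had the second highest change under Cpd-60 in each region. In the PFC vehicle read 8.85, 9.16 and 9.20, and Cpd-60 read 9.38, 9.09 and 9.45. In the HIP vehicle read 8.77, 8.85 and 9.30, and Cpd-60 read 9.19, 9.24 and 9.37. The groups overlapped in both, with differences of 0.24 (interval -0.06 to 0.53, adjusted p = 0.98) and 0.30 (interval -0.04 to 0.64, adjusted p = 0.99). In the NAc vehicle read 9.39, 9.32 and 8.81, and Cpd-60 read 9.94, 9.70 and 8.97, for 0.36 (interval -0.28 to 1.00, adjusted p = 1.00). Over the mean of 3 regions the Cpd-60 pools (9.50, 9.34 and 9.27) all lay above the highest vehicle pool (9.11), a difference of 0.30 (interval 0.10 to 0.50, adjusted p = 0.33) that passed the unadjusted threshold. The HIP difference also passed it when the CI-994 arrays were left out (0.30), or the second CI-994 pool (0.30) or the third vehicle pool (0.46). With 1 pool left out, the NAc difference ran from 0.16 (without Cpd-60 replicate 1) to 0.64 (without Cpd-60 replicate 3, where it passed), and the PFC difference from 0.12 (without Vehicle replicate 1) to 0.34 (without Cpd-60 replicate 2, where it passed). Without the second Cpd-60 pool the NAc and HIP differences were 0.28 and 0.31. Under SAHA and CI-994 Slc2a1 differed by -0.08 and -0.08 in the PFC, by -0.21 and -0.22 in the NAc, and by 0.26 and -0.15 in the HIP. All groups overlapped. In the NAc the sign differed between BeadChips: SAHA gave -0.65 on the first and 0.28 on the second, and CI-994 gave -0.76 and 0.32.

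Of the junction genes, Cldn5, the main claudin of brain endothelium, was lower than vehicle under Cpd-60 by point estimate in each region. In the PFC vehicle read 8.97, 8.89 and 8.94, and Cpd-60 read 8.34, 8.80 and 8.85, so that the groups did not overlap. The difference of -0.28 (interval -0.62 to 0.06, adjusted p = 0.98) passed no threshold, and it passed the unadjusted one when the CI-994 arrays were left out (-0.27). The NAc and HIP differences were -0.08 and -0.16, with overlap. Pecam1, an adhesion molecule of endothelial contacts, read 6.74 to 7.24 on all 36 arrays, and its Cpd-60 differences were 0.08, 0.05 and 0.02 in the PFC, NAc and HIP. Cdh5, the cadherin of endothelial adherens junctions, read 6.56 to 7.09 on all 36 arrays, with Cpd-60 differences of 0.12, 0.03 and -0.01. It was close to the detection limit, which limits what its values can show. The junction genes as read here thus gave no difference in the direction of Mfsd2 that passed a threshold.

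The growth factor receptors were lower or level under Cpd-60 by point estimate, and none passed a threshold. Flt1, a receptor of vascular endothelial growth factors, differed by -0.10 (PFC), -0.15 (NAc) and -0.13 (HIP). In the HIP its vehicle pools read 8.68, 8.61 and 8.65 and its Cpd-60 pools 8.45, 8.52 and 8.58, all of the latter below the lowest vehicle pool (interval -0.31 to 0.05, adjusted p = 0.99). Tek, the angiopoietin receptor, differed by -0.02, -0.01 and -0.11, with groups apart in the HIP alone. The organic anion transporter Slco1a4 differed by 0.09, -0.07 and -0.13, with overlap in each region. The surface marker Ly6c1 was higher by point estimate, by 0.004, 0.05 and 0.14 in the PFC, NAc and HIP, also with overlap in each. Second probes of Pecam1, Flt1 and Cdh5 that passed the filter in the PFC or NAc gave Cpd-60 differences between -0.13 and 0.15, none past a threshold.

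Under CI-994 the member with the largest difference was Ly6c1, a surface protein of brain endothelium that some white blood cells also carry. In the NAc vehicle read 9.05, 8.88 and 8.79, and CI-994 read 8.58, 8.26 and 8.51. All CI-994 pools lay below all vehicle pools, and the difference was -0.46 (SE 0.14, interval -0.76 to -0.16, adjusted p = 1.00). It passed the unadjusted threshold, as 0.383% of probes tested did, and missed 0.05 by Tukey's HSD, the test of the study. In the PFC the CI-994 pools (8.77, 8.84 and 8.77) also lay below the vehicle pools (9.04, 9.20 and 8.87), with a difference of -0.24 (interval -0.45 to -0.04) that was under 1.2-fold. In the HIP vehicle read 8.29, 8.24 and 8.53 and CI-994 read 8.15, 8.34 and 8.41, a difference of -0.05 with overlap. Over the mean of 3 regions the difference was -0.25 (interval -0.37 to -0.13, adjusted p = 0.67), under 1.2-fold. Within BeadChips the NAc difference was -0.39 and -0.40, and the PFC difference -0.35 and -0.06.

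Red cell markers were also lower under CI-994: Hbb-b1 and Hba-a1, which encode globins, passed the unadjusted threshold in all 3 regions, from -0.51 to -0.89. The summed intensity of the 4 red cell markers was 8194 to 11612 in the NAc under vehicle and 4662 to 9630 under CI-994. In the HIP, where the Ly6c1 groups overlapped, it was 8480 to 9882 and 5501 to 5831, and the groups were apart. Under SAHA, where Ly6c1 passed in no region, Hba-a1 (-0.46) and Hbb-b1 (-0.46) were lower in the PFC and Hba-a1 (-0.52) in the HIP. The median change of the red cell markers was below 0 in all 9 comparisons, from -0.43 to -0.06. The part of blood in the Ly6c1 values was not tested.

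In the other CI-994 comparisons no member passed the unadjusted threshold, against 0.654% of probes in the PFC and 0.67% in the HIP. Groups did not overlap for 3 members in the PFC (Mfsd2 and Ly6c1 lower, Slco1a4 higher), 1 in the NAc (Ly6c1 lower) and 1 in the HIP (Slco1a4 lower), with 10.7%, 7.61% and 9.58% of all probes. Tek in the PFC read 7.40, 7.24 and 7.12 under vehicle and 7.12, 7.00 and 7.10 under CI-994, a difference of -0.18 (interval -0.34 to -0.01, adjusted p = 1.00) that was under 1.2-fold. The median change of the 8 members other than Mfsd2 under CI-994 was -0.02 (PFC), -0.03 (NAc) and -0.07 (HIP).

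Under SAHA no member passed the unadjusted threshold in any region, where 0.217% (PFC), 0.546% (NAc) and 3.17% (HIP) of probes did so. The median change of the other 8 members was -0.01, -0.02 and 0.03. Groups did not overlap for Cldn5 in the PFC (lower), Ly6c1 in the NAc (lower), and Mfsd2, Cldn5 (both higher) and Flt1 (lower) in the HIP. The shares over all probes were 8.68%, 7.11% and 19.3%. In the HIP, Cldn5 read 8.46, 8.33 and 8.47 under vehicle and 8.70, 8.73 and 8.84 under SAHA, a difference of 0.34 (interval 0.00 to 0.68, adjusted p = 0.53). Flt1 in the HIP read 8.59, 8.43 and 8.35 under SAHA, a difference of -0.19 (interval -0.37 to -0.01, adjusted p = 0.53) that was under 1.2-fold. These HIP differences had opposite signs, and the SAHA arrays of the HIP for replicates 2 and 3 were dim, with 95th percentiles of raw intensity of 437.7 and 452.0 in a range over all arrays of 349.9 to 1079.7. The part of that in the values was not tested.

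Set side by side on single arrays, Mfsd2 under Cpd-60 was above the vehicle mean of its region on 8 of 9 arrays, from -0.15 to 1.06. On the same 9 arrays the median of the other 8 members stayed between -0.05 and 0.07. Slc2a1 was above its vehicle mean on 8 of the 9 as well, from -0.21 to 0.76. The array with Mfsd2 below the vehicle mean was the third Cpd-60 pool of the NAc.

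**Figure D3:**
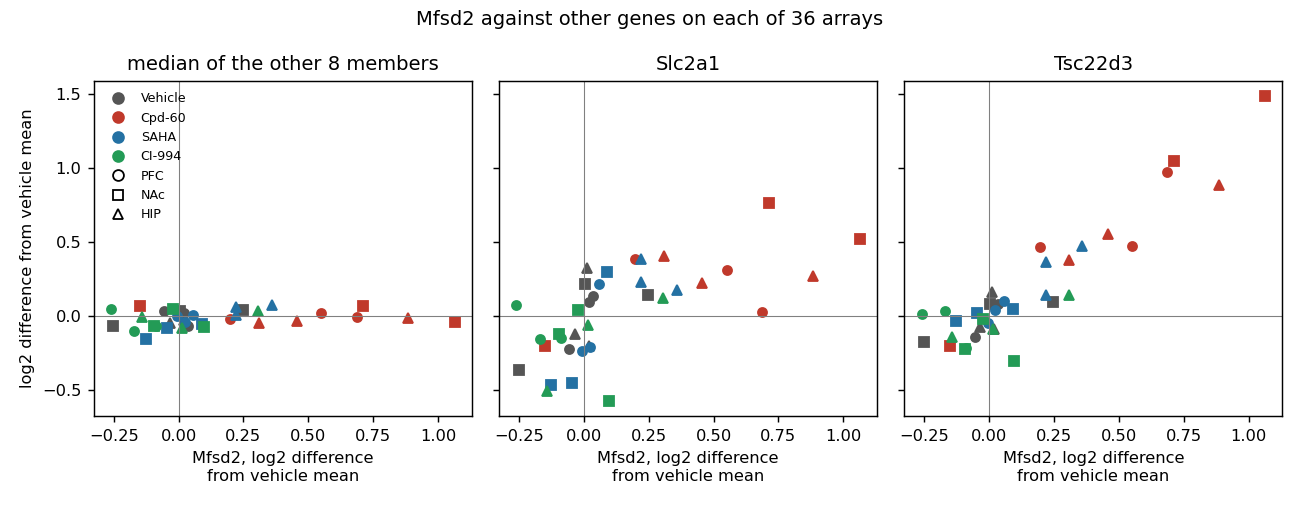
Log2 difference from the vehicle mean of the same region for Mfsd2 (horizontal axes) against the same for other genes (vertical axis) on each of 36 arrays, with color giving the treatment and symbol the region. The Cpd-60 arrays spread from -0.15 to 1.06 along the Mfsd2 axis while the median of the other 8 members stays between -0.05 and 0.07, and Slc2a1 spreads from -0.21 to 0.76.

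Likeness to Mfsd2 was measured as the Pearson correlation (r) of log2 values over the 36 arrays, after taking off each region's mean, for 19446 other probes. The arrays come from 12 pools and share vehicle and drug groups, so r is a description. Among the members, Slc2a1 was most like Mfsd2 (r = 0.65, Spearman's rho = 0.66, place 171 among all probes), and r was 0.51 over the 27 arrays without Cpd-60. Ly6c1 followed (r = 0.48, place 818), then Pecam1 (0.32) and Cdh5 (0.13). Cldn5 (-0.03) and Tek (-0.09) had r close to 0, and Slco1a4 (-0.41) and Flt1 (-0.42) ran the other way. Of all probes, the 5 most like Mfsd2 were no members.

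The closest was Tsc22d3, a leucine zipper protein known to be induced by glucocorticoids (r = 0.93, rho = 0.82), and r was 0.60 without the Cpd-60 arrays. Next came Rasl11b, a small GTPase (r = 0.90, rho = 0.81, 0.57 without Cpd-60). Gm129 (current symbol Ciart), a circadian repressor, had r = 0.89 and 0.87 at its 2 probes, and Txnip, a thioredoxin-binding protein, had r = 0.88. Without Cpd-60 the values of these were 0.38, 0.24 and 0.39, well below those with it. Leaving out the 2 arrays with the highest Mfsd2, the second Cpd-60 pool of NAc and of HIP, gave 0.89 for Tsc22d3, 0.86 for Rasl11b and 0.62 for Slc2a1. Tsc22d3 was picked here by its likeness to Mfsd2 on arrays that include those of Cpd-60, and the study had named it from the same arrays. Its differences under Cpd-60 are thus not independent evidence. Tsc22d3 under Cpd-60 was higher by 0.63 (PFC), 0.78 (NAc) and 0.61 (HIP). Each passed the unadjusted threshold, as 1.11%, 1.78% and 1.53% of all probes tested did, and none passed the adjusted one. In the NAc that call was lost in 5 of 12 refits with 1 pool left out, over which the difference ran from 0.42 (without Cpd-60 replicate 2) to 1.26 (without Cpd-60 replicate 3). It was lost without Cpd-60 replicate 1 (0.64), without each vehicle pool (0.69 to 0.82) and without the CI-994 arrays (0.77) as well. Tsc22d3 also passed the unadjusted threshold under SAHA in the HIP (0.33, interval 0.04 to 0.61, limma adjusted p = 0.52), as 3.17% of probes did. The groups overlapped there. In the PFC and NAc it differed under SAHA by 0.03 and 0.01. Under CI-994 it differed by -0.06 (PFC), -0.18 (NAc) and -0.03 (HIP), and none of these passed.

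Beyond the 10 members, 4 lists of other endothelial genes were read: junction genes, receptors, transporters and transcription factors. Together they gave 35 to 38 tested genes in each of 9 comparisons, 327 values in all. Of these, 3 passed the unadjusted threshold, and the median change per comparison ran from -0.03 to 0.01. These 3 were in the Cpd-60 comparisons of the NAc and HIP, where 1.78% and 1.53% of all probes passed: Klf2, a flow-responsive transcription factor, was higher in the NAc (0.34, adjusted p = 0.94), and Slco1c1, a thyroid hormone transporter of the barrier, was lower in the NAc (-0.32, adjusted p = 0.94) and HIP (-0.31, adjusted p = 0.93). The lists of 12 junction genes and of 12 receptors had none in any comparison. Like the members, these lists stayed near the median of all probes, with 1 higher and 2 lower in all. Many of their genes were dim. On all 3 vehicle arrays of a region, 6 to 9 of 12 junction genes and 5 to 7 of 12 receptors were detected. For transporters it was 4 or 5 of 12, and for transcription factors 3 to 5 of 12. Probes near background limit what these medians can show.

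Genes that act beside Mfsd2 were read too. Of 9 to 12 tested genes that bind, activate or lengthen polyunsaturated fatty acids, none passed under Cpd-60 or CI-994. Under Cpd-60, 8 of 9 were above vehicle in the PFC, with a median change of 0.12, and 8 of 11 in the NAc, with a median of 0.06. In the HIP 7 of 12 were, with a median of 0.03. Of all probes tested, 48.7% (PFC), 48.4% (NAc) and 49.2% (HIP) were above vehicle. The summed intensity of the 9 genes tested in all regions was 6889 to 7483 under vehicle and 7724 to 8002 under Cpd-60 in the PFC, and 6770 to 7157 and 7392 to 7813 in the NAc. The groups were apart in both regions and overlapped in the HIP (6615 to 7528 and 7054 to 7794). Of single probes, 9.68% (PFC) and 9.38% (NAc) had groups apart, and bright genes weigh most in a sum. The part of these sums in the Mfsd2 values was not tested. In the HIP under SAHA, Acsl4, which activates long fatty acids, was higher (0.42, adjusted p = 0.50) and Slc27a1, a fatty acid transport protein, lower (-0.28, adjusted p = 0.50). Of the ligands and co-receptors of vascular growth pathways, Wnt7a, a ligand needed for barrier formation, was lower in the HIP under Cpd-60 (-0.42, adjusted p = 0.81). Under SAHA in the HIP, Vegfb was lower (-0.29, adjusted p = 0.53) and Ctnnb1, the effector of Wnt signals, higher (0.29, adjusted p = 0.52). The 6 tested genes of leaky endothelium gave no call in any comparison. None of these values passed an adjusted p of 0.05.

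Other cells of the vessel wall and brain gave the following. Of 8 to 11 tested mural cell genes none passed in any comparison, and their summed intensity in the PFC was 1615 to 1929 under vehicle and 1643 to 1817 under Cpd-60. Astrocyte markers summed to 13963 to 14529 under vehicle and 14560 to 15712 under Cpd-60 (PFC), and to 15662 to 17265 and 17982 to 18759 (HIP). These groups were apart in both regions in which Mfsd2 passed the unadjusted threshold, and overlapped in the NAc (13254 to 13682 and 13350 to 15626). Of single probes, 9.68% (PFC) and 12.2% (HIP) had groups apart under Cpd-60. Under SAHA the astrocyte sum was 14750 to 16078 in the NAc, above all vehicle pools, where Mfsd2 differed by -0.03. By single genes, Gfap (0.77, adjusted p = 1.00) and Gja1 (0.30, adjusted p = 1.00), an intermediate filament and a gap junction protein of astrocytes, were higher in the NAc under Cpd-60, and no astrocyte gene passed in the PFC or HIP under Cpd-60. Under SAHA, Gja1 was higher in the NAc (0.35), and in the HIP Gfap was lower (-0.81) and Slc1a3, a glutamate transporter, higher (0.33). The part of astrocyte RNA in the values of Mfsd2 and Slc2a1 was not tested. Microglial Cx3cr1 (-0.46, adjusted p = 1.00) and the fibroblast collagen Col1a1 (-0.31, adjusted p = 1.00) were lower in the NAc under Cpd-60, as was Hbb-b1 (-0.56, adjusted p = 1.00). Choroid plexus markers passed in no comparison and summed to 3052 to 11174 under vehicle and 5647 to 8497 under Cpd-60 in the HIP.

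In vehicle mice the members' levels were compared between regions. Each region was run on BeadChips of its own, so region and BeadChip cannot be told apart in these differences. For Ly6c1, the HIP was lower than the PFC by 0.69 (SE 0.12, adjusted p = 8.1e-05) and lower than the NAc by 0.56 (SE 0.12, adjusted p = 0.00082). Its HIP pools (8.29, 8.24 and 8.53) lay below all PFC pools (9.04, 9.20 and 8.87) and all NAc pools (9.05, 8.88 and 8.79). Between HIP and PFC, Cldn5 was lower in the HIP by 0.51 (adjusted p = 0.047), Tek lower by 0.27 (adjusted p = 0.044) and Slco1a4 higher by 0.27 (adjusted p = 0.049). With no filter on dim probes these 3 no longer passed. That made 4 of 9 members between HIP and PFC, 1 between HIP and NAc and none between PFC and NAc, where 25.9%, 16.7% and 19.5% of all probes passed. At an unadjusted p of 0.05, Tek (0.22, adjusted p = 0.12) and Slco1a4 (-0.22, adjusted p = 0.13) passed between PFC and NAc.

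Mfsd2 passed no threshold between regions of vehicle mice. Its means were 8.43 ± 0.05 (PFC), 8.27 ± 0.25 (NAc) and 8.22 ± 0.03 (HIP; SD, n = 3). The order was PFC, NAc, HIP, and neighbours in it did not differ beyond their error (PFC minus NAc 0.16, interval -0.22 to 0.55, and HIP minus NAc -0.05, interval -0.43 to 0.34). Between the ends of the order, HIP minus PFC was -0.21 (interval -0.59 to 0.17, adjusted p = 0.45), although the HIP pools (8.19 to 8.24) all lay below the PFC pools (8.38 to 8.47). Slc2a1 read 9.07 ± 0.20, 9.18 ± 0.32 and 8.97 ± 0.28 in the same order, also without a difference past the threshold.

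**Figure D4:**
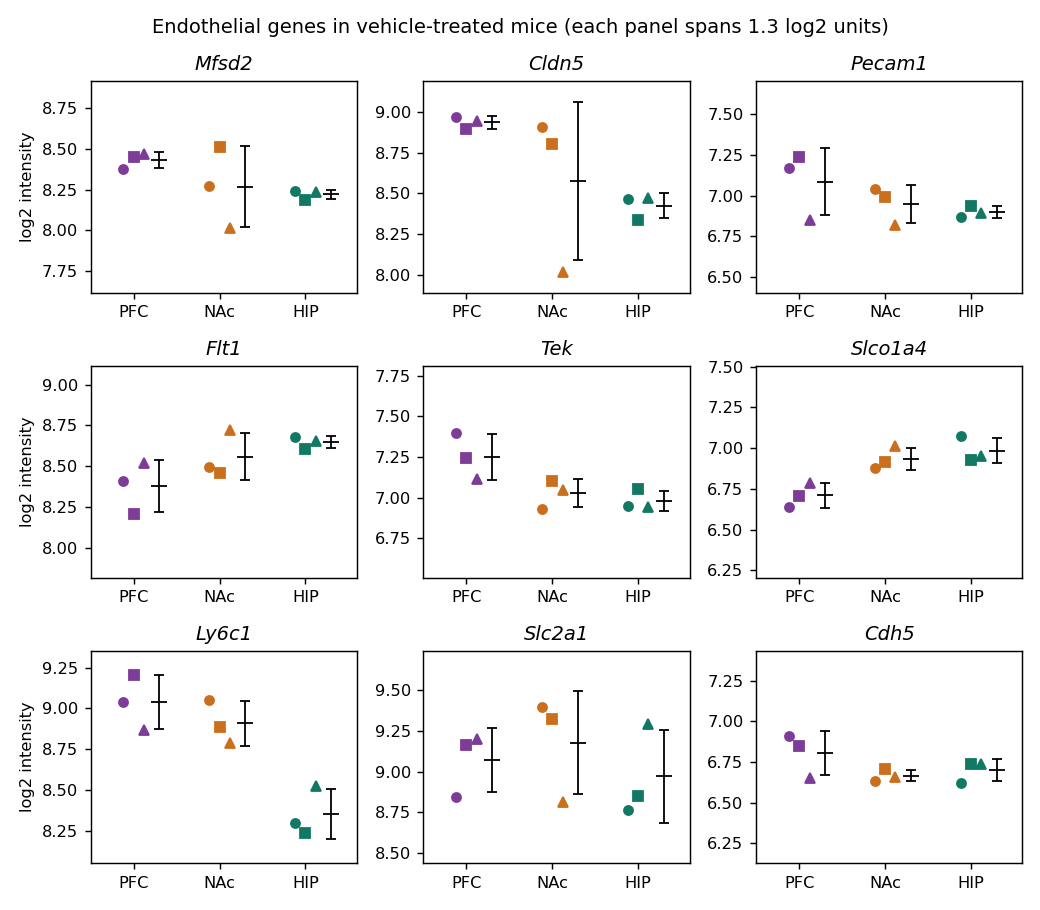
Log2 normalized intensity (vertical axes, each spanning the same range) of the 9 tested endothelial genes in the PFC, NAc and HIP of vehicle-treated mice. Each symbol is 1 pool and the black mark and bars give the mean and 1 SD of 3 pools. Ly6c1 lies at 8.24 to 8.53 in the HIP and at 8.79 to 9.20 in the PFC and NAc, while Mfsd2 overlaps between NAc and the other regions.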

How the data were processed

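Total RNA of 3 brain regions was pooled from 2 mice per array, labelled with biotin and hybridized to 36 Illumina MouseWG-6 arrays. The authors deposited the raw intensity of each probe on a linear scale, without normalization, and its detection p-value. Per the methods of the study, the signals were then quantile normalized in GeneSpring, and those values were not used here. The software that extracted the raw signals is not given in the sources used here.

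Intensities of all 36 arrays were quantile normalized together, floored at 1 and log2 transformed (R 4.3.3, limma 3.58.1). A probe was tested in a region if its detection p was at most 0.2 on 3 of 3 arrays of at least 1 group, a reading of the presence threshold in the methods. Each region was fitted with limma's lmFit and eBayes on 4 treatments of 3 pools without covariates. Benjamini-Hochberg adjustment over all probes tested was used at 0.05. Differences between regions were fitted on all 36 arrays with the pool as a random block (consensus correlation -0.00497). P-values measure the spread between pools of 2 mice, and the number of arrays limits the precision.

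The members, gene lists and tests were chosen with earlier results of these data known. Named genes are the 10 members, each by its tested probe with the highest mean signal, the 5 probes most correlated with Mfsd2, and from each list at most 3 genes per comparison past an unadjusted p of 0.05 and 1.2-fold. Alternatives were neqc background correction (offset 16), other detection filters, 27 arrays without CI-994, and the BeadChip or the replicate number as a block. Further ones were 1 fit over all arrays, Tukey's HSD after a one-way analysis of variance and each pool left out. Second probes of the members were read from the reported fit and are not among the alternatives. The code was tested on simulated data.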

Additional observations from a re-analysis of the deposited data

How the results depend on the processing

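Results were judged against an unadjusted p of 0.05 with 1.2-fold, except vehicle levels between regions (adjusted p). No result past the threshold changed sign, and sign changes of values that passed neither as reported nor under the alternative were counted as no change. Mfsd2 under Cpd-60 in the NAc (0.54) passed the threshold with 1 fit over all arrays (0.54), the BeadChip as a block (0.54), a detection limit of 0.01 (0.54), no detection filter (0.54) and the pool mean over regions (0.52). Cpd-60 against CI-994 in the NAc passed with 1 fit over all arrays (0.55), a detection limit of 0.01 (0.55), no filter (0.55) and the pool mean (0.56). Without CI-994 arrays, Mfsd2 under SAHA in the HIP (0.27) and Cpd-60 against SAHA in the HIP (0.28) passed, the latter also for the pool mean (0.44). Cpd-60 against SAHA in the NAc lost the threshold without CI-994 arrays (0.57) and when the BeadChip was blocked (0.45). The median change of the other 8 members moved with neqc under Cpd-60 in the PFC (0.10) and HIP (-0.094) and under CI-994 in the HIP (-0.17), and with the pool mean under Cpd-60 (0.0046) and CI-994 (-0.012) in the HIP. The cause was not tested. With neqc, Mfsd2 under Cpd-60 was higher by 0.59, 0.66 and 0.69 in the PFC, NAc and HIP. Dim members such as Cdh5, Slco1a4, Pecam1 and Tek are limited by their signal over background.

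Leaving out 1 of the 12 pools in turn gave 0.28 to 0.89 for Mfsd2 under Cpd-60 in the NAc (past the threshold without Cpd-60 replicate 3 or Vehicle replicate 2) and 0.22 to 0.29 under SAHA in the HIP (past it without CI-994 replicate 3, Cpd-60 replicate 2 or Cpd-60 replicate 3). The same refits gave 0.29 to 0.89 for Cpd-60 against CI-994 and 0.31 to 0.92 for Cpd-60 against SAHA in the NAc. In the HIP they gave 0.12 to 0.40 for Cpd-60 against SAHA and 0.11 to 0.33 for SAHA against CI-994. The median change of the other members ran from -0.035 to 0.086 (Cpd-60, PFC), -0.076 to 0.0049 (Cpd-60, HIP), -0.058 to 0.046 (SAHA, PFC) and -0.12 to 0.015 (CI-994, PFC). All other Mfsd2 changes and medians kept their side of the threshold or moved by less than the spread between pools.

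Replicate numbers are shared by the groups, but pools of the same number in different groups hold different mice. Between treatments, same-numbered pools correlated from -0.45 to 0.87 (median 0.24), over 0.1 in 32 of 54 pairs. The same animals in other regions had a median of -0.02, over 0.1 in 11 of 36 pairs. The source of the likeness by number was not tested, and the replicate number was fitted as a block. With the replicate block, 4 of 208 results crossed their threshold: Mfsd2 in the NAc under Cpd-60 against vehicle (0.54) and against CI-994 (0.55), Cldn5 in the HIP under SAHA (0.34) and Cldn5 between HIP and PFC in vehicle mice (adjusted p = 0.062).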
